A study of Arabidopsis thaliana with 28 samples.

Results

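The distal root-only regions are stretches of open chromatin that had an ATAC-seq peak in every wild-type root library and in no shoot library, and that lie away from genes. They were found by merging overlapping peaks of the 12 wild-type (WT) peak lists and keeping the regions with a peak in all 8 root lists and in none of 4 shoot lists whose midpoint was more than 1 kb from every protein-coding gene. The rule kept 431 of 37790 merged regions, 381.281 kb in all. A further 1284 root-only regions had the midpoint within 1 kb of a gene. ATAC-seq marks open DNA with a transposase, which inserts where nucleosomes leave the DNA free. Open DNA away from genes often holds enhancers or other regulatory elements, to which transcription factors bind and which may act on a gene at some distance. Cytokinins signal through histidine kinases and phosphotransfer proteins to the type-B response regulators, DNA-binding proteins that switch on the early response genes and act in root growth and vascular development.

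The libraries came from sorted Arabidopsis thaliana nuclei after 45 min in liquid medium with 5 µM of the cytokinin benzyladenine (BA) or with vehicle as control. There were 2 BA and 2 control libraries from roots of arr1,10,12, in which the type-B regulator genes ARR1, ARR10 and ARR12 are mutated by alleles that the labels do not give. WT is the Col-0 strain, with 4 BA and 4 control libraries from roots and 2 BA and 2 control libraries from shoots. The series text calls the libraries biological replicates. Root lists held 31655 to 36358 peaks and shoot lists 30778 to 34538. Shoot lists covered less of the genome, 19.7 to 23.1 Mb, against 24.1 to 28.7 Mb in WT roots and 23.7 to 27.2 Mb in arr1,10,12 roots. Their median peak widths were 427 to 470 bp, against 482 to 537.5 bp in root lists. A region without a shoot peak is therefore not shown to be closed in shoots. The lists give positions without scores or read numbers, so the depth is unknown, and a peak list cannot show whether the 3 regulator genes are disrupted in arr1,10,12. The tissue labels were checked on genes of known tissue, with 1 kb added on both sides: peaks covered 21.6% to 24.7% of 36 photosynthesis and leaf genes in WT root libraries, against 38.1% to 49.4% in shoot libraries, and 25.4% to 33.9% of 25 root epidermis genes in WT root libraries, against 10.7% to 12.6% in shoot libraries. A region is described here by its covered percent, the share of its length under a peak in a library. Coordinates are those of TAIR10, and a region carries the name of its nearest protein-coding gene. A change in the share of nuclei with open DNA and a change within each nucleus cannot be told apart in bulk data.

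The regions were mostly short. Their median width was 702 bp, with quartiles at 518.5 and 995 bp, and 22 were wider than 2 kb. Root-only regions within 1 kb of a gene had a median of 718 bp and distal regions with a peak in all 12 WT lists 1404 bp. The core, the part of a region under a peak in all 8 WT root libraries, was missing in 1 region. It had a median length of 317 bp, or 50.9% of the region. In 291 regions each WT root library had exactly 1 peak. These widths follow in part from the rule, which drops a region that any shoot peak touches, and are given without a test.

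Distances to genes were short for most regions and long for a few. The median from the midpoint to the nearest protein-coding gene was 1911 bp, 234 regions (54.3%) lay between 1 and 2 kb, and 29 lay more than 5 kb away. In 316 regions the whole stretch, and not the midpoint alone, was more than 1 kb from every protein-coding gene. Just inside the limit were regions 1004 bp from AT3G28510, 1005 bp from AT1G52110 and 1009 bp from AT1G67650. Just outside it were regions 1000 bp from AT2G10440, 1000 bp from AT4G20230 and 998 bp from APRL5, so that the limit cuts a continuous range. At the other end, the region of AT3G30845 (chromosome 3, 12655794 to 12656398) was 31342 bp from the gene, and it overlapped an annotated pseudogene. The region of ANX2, which encodes a pollen receptor kinase, was 14001 bp away and that of AT2G12405 10806 bp. The next farthest were 9261 bp from CYP71A16 and 8715 bp from GTA2, which encodes an SPT5-type elongation factor. All 5 of these farthest regions had a peak in 4 of 4 arr1,10,12 libraries.

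**Figure D1:**
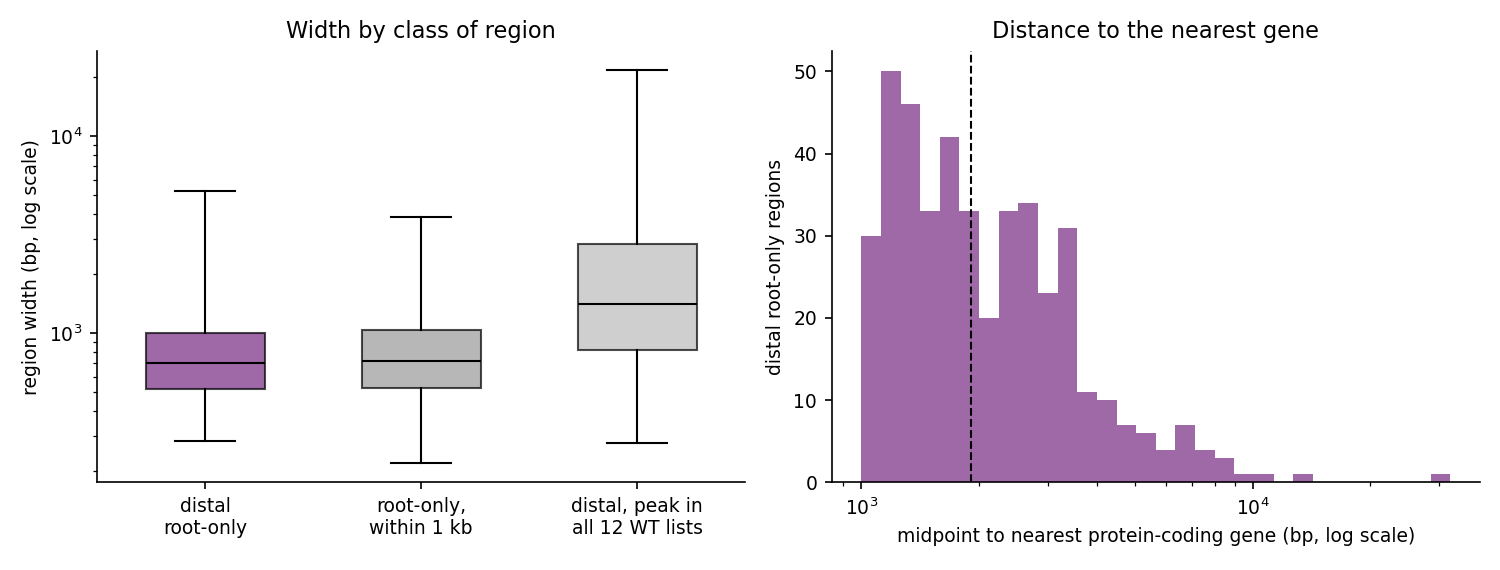
Left, width in bp on a log axis for distal root-only regions (431), root-only regions within 1 kb of a gene (1284) and distal regions with a peak in all 12 WT lists (2057); boxes span the quartiles with the median as a line, and whiskers reach the lowest and highest values. Right, number of distal root-only regions by distance from midpoint to nearest protein-coding gene, on a log axis, with the median of 1911 bp dashed. The distal root-only regions have about the widths of the near-gene ones (medians 702 and 718 bp), and most lie in the first 2 kb past the limit.

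All 5 chromosomes held such regions, with 111 on chromosome 1, 83 on chromosome 2, 71 on chromosome 3, 61 on chromosome 4 and 105 on chromosome 5. The median number of protein-coding genes in the 100 kb around a region was 24, against 27 for the near-gene root-only regions and 24 for distal regions open in all 12 WT lists. The regions fell into 367 gaps between protein-coding genes, with a median gap length of 6651 bp over the regions, and 112 of the 431 shared their gap with another one. Root-only chromatin also recurred at the genes themselves. A gene on either side had a root-only region within 1 kb for 144 of the 431 (33.4%), against 239 of 2057 distal regions open in all 12 WT lists (11.6%). For the nearest gene alone the shares were 20.6% and 6.47%. Another kind of annotated gene, such as a noncoding RNA, lay under 49 of the regions (11.4%) and under 26.3% of distal regions open in all 12 WT lists. Long noncoding RNA genes were under 17 regions, transcribed pseudogenes under 10 and tRNA genes under 3. One of the last, a region of 1987 bp near AT1G28815 (chromosome 1, 10098458 to 10100444), spanned 5 tRNA genes.

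The fullest gap lay in the marneral cluster, a group of neighbouring genes for a root triterpene. Between CYP71A16, which encodes marneral oxidase, and MRN1, which encodes marneral synthase, 7 regions covered 13704 bp of a span of 17144 bp (chromosome 5, 17033125 to 17050268). The first of the 7 was the widest of all 431, at 5226 bp. It was 90.7%, 97.6%, 85.6% and 87.9% covered in the 4 WT BA libraries and 90.1%, 73.7%, 67.5% and 79.8% in the 4 WT control libraries, so the treatments overlapped. In arr1,10,12 it was 81.7% and 91.2% covered with BA and 76.1% and 87.4% in control, a difference between the genotypes of -0.0191 percentage points (SE 4.54). A second wide region in the gap (chromosome 5, 17044023 to 17046216) was 97.4% to 99.8% covered in arr1,10,12 and 97.9% to 99.9% in WT roots. The narrowest of the 7, 457 bp wide, had no peak in arr1,10,12 BA 1 and control 1 and was 54.7% and 43.8% covered in BA 2 and control 2. It was 43.8% to 100% covered in the 8 WT root libraries. No shoot library had a peak anywhere in the span.

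**Figure D2:**
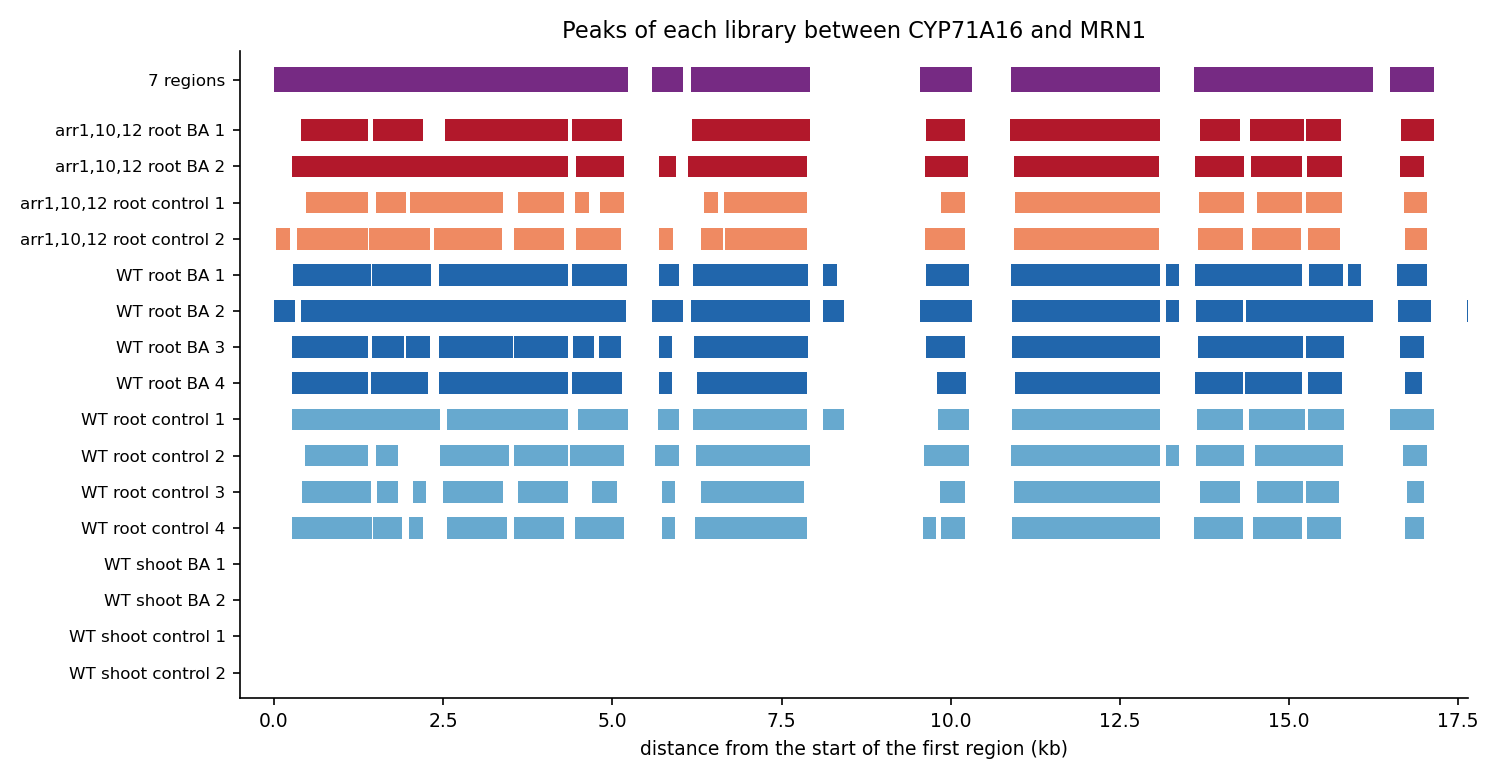
Peaks of the 16 libraries between CYP71A16 and MRN1, with the 7 distal root-only regions in the top row; the x axis is the distance in kb from the start of the first region, each bar is 1 peak, and colours mark the groups. The second region has no peak in 2 of the 4 arr1,10,12 libraries, a few peaks between the regions stand in WT root libraries and in no arr1,10,12 library, and the 4 shoot rows are empty.

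The other 9 of the 10 widest regions lay beside genes of several kinds. One of 4197 bp (chromosome 1, 29064192 to 29068388) was 1653 bp from AT1G77330, an ACC oxidase gene of ethylene synthesis. One of 3181 bp was 1294 bp from MYB68, a transcription factor gene of the root, one of 3098 bp was 1156 bp from the aquaporin gene PIP2;4, and one of 2774 bp lay between the ammonium transporter genes AMT1;5 and AMT1;3. The rest of the 10 widest, between 2641 and 3412 bp, were those of APC3, a mitochondrial carrier gene, AT4G15390, AT4G28830, AT4G37860 and DAZ2. All 10 had a peak in 4 of 4 arr1,10,12 libraries. Of the 22 regions over 2 kb wide, 21 (95.5%) had a peak in every arr1,10,12 library, against 64 of the 93 regions under 500 bp (68.8%). Any overlap counts as a peak here, which a wide region meets more easily. Shares by width were not taken for other regions.

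The flanking genes were compared with 7 gene lists, drawn up with earlier results of these data known. In all, 720 protein-coding genes (2.62% of 27432) were the nearest on one side or the other of a distal root-only region. This share is over all genes, also those beside gaps too short to hold a distal region. The same shares beside other distal regions were not taken, and the part of gap length was not tested. Of the 27 nutrient transport genes listed, 11 (40.7%) were such flanking genes. They were the ammonium transporters AMT1;3 and AMT1;5, the nitrate transporters NRT1.1, NRT1.5 and NRT2.5, the iron transporters IRT1 and IRT2, the phosphate transporter PHT1;4, the sulfate transporter SULTR1;1, the boron channel NIP5;1 and the copper transporter COPT2. None of the 36 photosynthesis and leaf genes was one. Between these lay the root stem cell and ground tissue list with 4 of 28 (MGP, NUC, PLT3 and PLT5), the endodermis, pericycle and vascular list with 4 of 34 (LBD18, MYB36, MYB39 and PHO1), the auxin list with 4 of 35 (AUX1, IAA1, IAA14 and PIN3), the root epidermis list with 2 of 25 (GL3 and RSL3) and the cytokinin list with 3 of 57 (ARR12, CYP735A2 and IPT5). Since the rule chose regions with a peak in every WT root list and in no shoot list, these counts are a description and carry no test.

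The state of the regions in arr1,10,12 roots was read from the 4 mutant libraries, which played no part in the rule. Most of the regions had a peak there: 365 of 431 (84.7%) had one in all 4 arr1,10,12 libraries, 29 in 3, 19 in 2, 12 in 1 and 6 (1.39%) in none. Among all 20943 regions with a peak in all 8 WT root lists, 96.1% had a peak in all 4 and 0.172% in none. These were selected on WT roots in the same way, but without the limits on shoot peaks and distance. Near-gene root-only regions had 87.6% and 0.467%, and distal regions open in all 12 WT lists 95.4% and 0.243%. Any overlap counts as a peak here, which a wide region meets more easily. The median widths of these 4 sets were 702, 1063, 718 and 1404 bp in the order given. Without WT control 1 the rule gave 467 regions with 2.78% in none, and without WT BA 3 it gave 491 with 2.24%. The 431 regions were on average 63.9% and 67.1% covered in the arr1,10,12 BA libraries and 60.5% and 68.1% in the arr1,10,12 control libraries, against 78.7%, 80.1%, 64.7% and 73.5% in WT BA and 72.7%, 84.1%, 79.0% and 76.7% in WT control. The highest mutant library thus stood above the lowest WT library, BA 3, and below the other 7. Averaged over libraries the cover was 64.9% ± 3.42 in arr1,10,12 and 76.2% ± 5.90 in WT roots (SD, n = 4 and 8). It was 72.6% ± 4.16 and 76.3% ± 3.68 over all regions with a peak in all 8 WT root lists, and 70.7% ± 1.87 and 77.9% ± 4.17 over distal regions open in all 12 WT lists. WT roots were used to choose the regions, so part of the lower mutant value follows from the choice. Over the whole genome, the length under peaks differed by -1.01 Mb between arr1,10,12 and WT roots (exact permutation p = 0.295), and the number of peaks by -594 (exact permutation p = 0.590). Both permutations treated libraries of the same replicate number as independent.

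**Figure D3:**
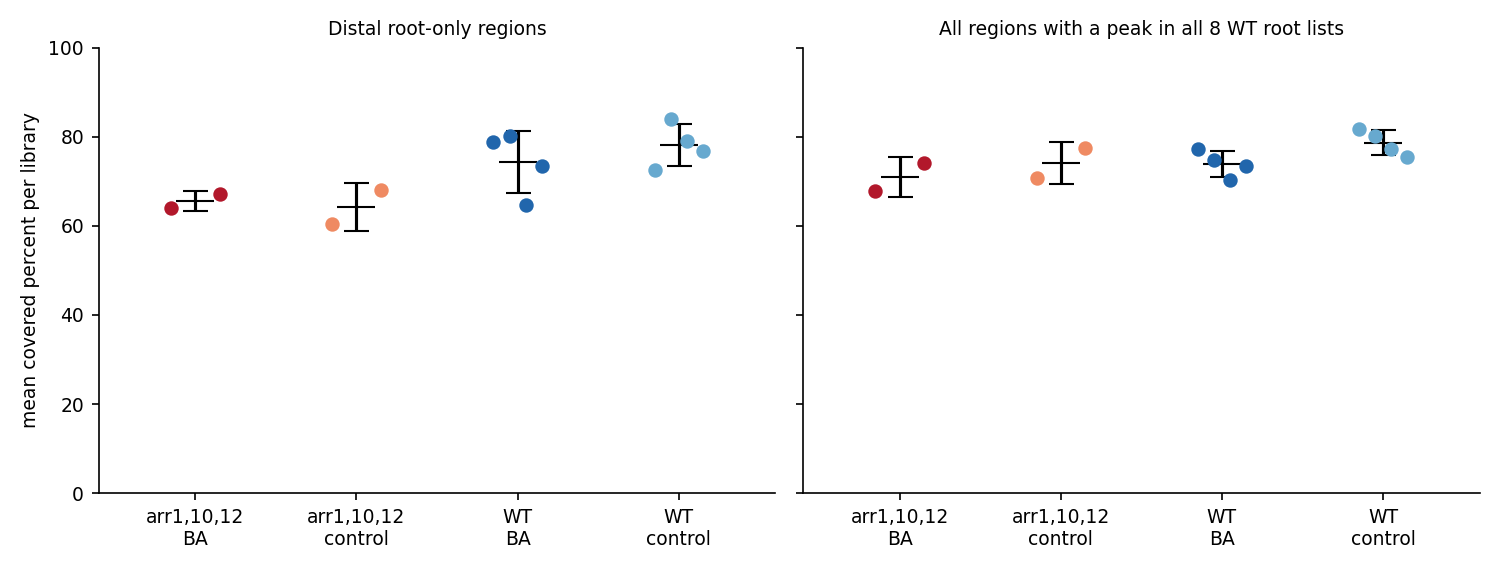
Mean covered percent of each root library over the 431 distal root-only regions (left) and over all 20943 regions with a peak in all 8 WT root lists (right); points are libraries, lines and bars the mean and SD of each group (2 libraries per arr1,10,12 group, 4 per WT group). On the left the 4 arr1,10,12 libraries sit between 60.5% and 68.1% and the 8 WT libraries between 64.7% and 84.1%.

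Single regions were tested with limma on the covered percent of all 30325 regions with a peak in at least 2 of 12 root libraries, with adjustment over all of them and a threshold of 0.05. In arr1,10,12 against WT, 12 of the 431 distal root-only regions (2.78%) were called lower and 0 higher. The rule required a peak in all 8 WT root libraries, which favours lower over higher calls. The p-values of the 431 are thus not independent of the choice of regions. The background was 0.412% called lower and 0.0033% higher over all regions tested, 0.587% lower over those with a peak in all 8 WT root lists and 1.78% lower over the distal ones among these. The median difference was -7.44 points over the 431 regions, 309 of them negative, and -3 points over all regions tested. With each library's median subtracted, which moves the median of all regions to 1.78 points and that of the 431 to -2.66 points, 5 were called lower and 1 higher. Where all arr1,10,12 libraries stood below all WT libraries, counted without a test, there were 24 of the 431 (5.57%), against 1.36% of regions tested and 4.91% of distal regions with a peak in all 8 WT root lists. The replicate numbers were taken to pair the libraries, which the WT libraries bear out. With 2 arr1,10,12 libraries per treatment this could not be checked in the mutant. With these numbers as a block 13 of the 431 were called, 5 of them among the 12. In all 200 regions were called, against 126 without the block. The main fit takes the libraries as independent, and the block removes the spread between pairs. Neither measures the genotype difference against the spread of the 4 WT and 2 arr1,10,12 pairs, so these adjusted p-values can be too low. The 12 differences were all negative without each library in turn and moved by at most 4.77% to 15.9% of their size. Their adjusted p depended more on single libraries: 1 kept its call without arr1,10,12 control 1, 2 without arr1,10,12 BA 1, 2 without WT BA 2, 3 without WT BA 1, and 4 each without arr1,10,12 BA 2 and without WT control 2. Leaving out WT control 3 or WT control 4 kept 6, arr1,10,12 control 2 kept 7, and the others 8 to 10.

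**Figure D4:**
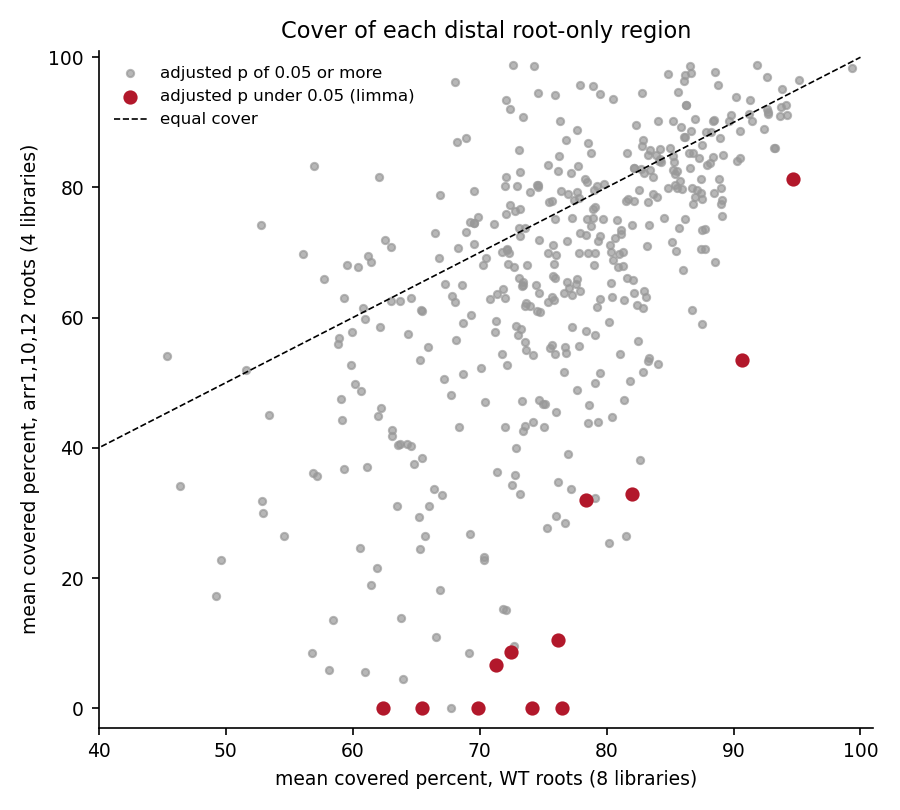
Mean covered percent of each distal root-only region in arr1,10,12 roots (y axis, 4 libraries) against WT roots (x axis, 8 libraries); red points are the 12 regions with an adjusted p under 0.05 by limma, and the dashed line marks equal cover. Regions below the line, 309 of 431, were less covered in arr1,10,12, and 6 points lie at 0 on the y axis.

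The 6 regions with no peak in any arr1,10,12 library were narrow, 307 to 926 bp. Since the rule required a peak in every WT root library, the cover of such regions cannot overlap between the genotypes. The one with the lowest adjusted p lay 1365 bp from AT3G20460 (chromosome 3, 7133367 to 7133673). It was 0% covered in all 4 arr1,10,12 libraries, against 65.1%, 100%, 65.1% and 82.1% in WT BA and 65.1%, 81.8%, 65.1% and 87.6% in WT control (difference -76.5 points, SE 9.92, limma adjusted p = 0.00675). It was the 1 region of the 12 that kept its call under all 18 alternative settings. A region 1216 bp from AT1G31163 (chromosome 1, 11127329 to 11127703) was likewise at 0% in all 4 arr1,10,12 libraries, against 67.7%, 82.9%, 86.7% and 70.9% in WT BA and 53.3%, 53.3%, 81.6% and 96.5% in WT control (difference -74.1 points, SE 10.7, limma adjusted p = 0.0115).

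Another lay between PMDH1, the gene of a peroxisomal malate dehydrogenase, and AT2G22790 (chromosome 2, 9694056 to 9694981). It was at 0% in all 4 arr1,10,12 libraries, against 95.1%, 98.2%, 74.7% and 48.3% in WT BA and 33.9%, 52.3%, 43.0% and 53.5% in WT control. Its difference of -62.4 points (SE 11.6) had a limma adjusted p of 0.0400, and 0.0669 with the replicate block. The regions of AT1G31772 and AT3G55720, also at 0% in the mutant, had limma adjusted p of 0.0400 and 0.0468, and 0.0857 and 0.0546 with the block. The sixth, between NAC074 and the casein kinase-like gene CKL6, ranged from 22.3% to 100% in WT roots and was not called (limma adjusted p = 0.0924).

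Among the regions with a remnant of cover in the mutant, the one at CYP735A2, the gene of the cytokinin hydroxylase that makes trans-zeatin, also had a higher mean with BA in WT. It was 2433 bp wide and lay 2848 bp from CYP735A2 and 1134 bp from AT1G67120 (chromosome 1, 25067078 to 25069510). It was 0% and 8.22% covered in arr1,10,12 BA and 0% and 18.5% in arr1,10,12 control, against 99.1%, 87.4%, 76.7% and 82.8% in WT BA and 35.6%, 66.3%, 79.9% and 42.6% in WT control. The genotypes did not overlap (difference -64.6 points, SE 10.8, limma adjusted p = 0.0272, and 0.0634 with the replicate block). In WT roots the BA libraries overlapped the control libraries at BA 3 and control 3 (difference 30.4 points, SE 12.4, limma adjusted p = 0.796). The authors' deposited table of differential root regions, which has no direction, overlapped 1356 bp of it. The 3 regions on the other side of CYP735A2, towards LBD40, all had a peak in 4 of 4 arr1,10,12 libraries and differences of -7.58 to -19.8 points, none of them called.

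In the thalianol cluster, a further root triterpene cluster, a region of 1491 bp lay between CYP705A5 and CYP708A2, both cytochrome P450 genes of that pathway (chromosome 5, 19441988 to 19443478). It was 0% and 34.3% covered in arr1,10,12 BA and 0% in both arr1,10,12 control libraries, against 90.7%, 100%, 85.9% and 85.6% in WT BA and 78.3%, 61.4%, 30.9% and 47.4% in WT control. The genotypes overlapped at 1 point, where arr1,10,12 BA 2 stood above WT control 3 (difference -63.9 points, SE 10.9, limma adjusted p = 0.0304). All 4 WT BA libraries stood above all 4 WT control libraries (difference 36.1 points, SE 12.6, limma adjusted p = 0.796).

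ACS7 encodes an ACC synthase of ethylene synthesis. A region 2483 bp from it (chromosome 4, 13272181 to 13273253) was 42.2% covered in both arr1,10,12 BA libraries and 23.5% in both arr1,10,12 control libraries, against 95.4%, 98.0%, 87.9% and 82.0% in WT BA and 81.8%, 87.5%, 62.3% and 61.2% in WT control. The genotypes did not overlap (difference -49.2 points, SE 7.30, limma adjusted p = 0.0134). A region 1505 bp from XTH31, a gene of a cell wall xyloglucan enzyme, was 65.6% and 46.5% covered in arr1,10,12 BA and 41.9% and 60.3% in arr1,10,12 control, against 78.5% to 94.3% in WT BA and 83.3% to 99.5% in WT control (difference -37.1 points, SE 5.72, limma adjusted p = 0.0169, and 0.0554 with the replicate block). The wide region of AT4G28830 was 83.5% and 85.2% covered in arr1,10,12 BA and 76.6% and 79.8% in arr1,10,12 control, against 91.8% to 96.6% in WT BA and 93.2% to 98.1% in WT control. Its difference of -13.4 points was the smallest of the 12 (SE 2.1, limma adjusted p = 0.0186). With library medians subtracted the difference was -8.65 points (limma adjusted p = 0.310), and with no trend in the fit the limma adjusted p was 0.107.

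The remaining calls were at AT1G71000, with no peak in the 2 arr1,10,12 BA libraries and 64.0% and 63.8% in the arr1,10,12 control libraries, against 64.0% to 93.1% in WT BA and 65.6% to 99.2% in WT control (limma adjusted p = 0.0400, and 0.0886 with the replicate block), and at MYB86, a MYB transcription factor gene 4971 bp away. The region of MYB86 falls outside the rule for named regions and was named after its values were seen. It had no peak in 3 arr1,10,12 libraries and was 41.9% covered in control 2, a value that WT BA 3 shared (limma adjusted p = 0.0490, and 0.0871 with the block). In the opposite direction, 1 of the 431 regions stood higher in all arr1,10,12 libraries than in all WT libraries (background 0.145%). It was 1968 bp from IPT5, which encodes an isopentenyltransferase of cytokinin synthesis, and was 98.8% and 87.5% covered in arr1,10,12 BA and 87.4% and 100% in arr1,10,12 control, against 57.7% to 83.3% in WT BA and 64.1% to 86.3% in WT control (difference 21.4 points, SE 6.06, limma adjusted p = 0.180).

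**Figure D5:**
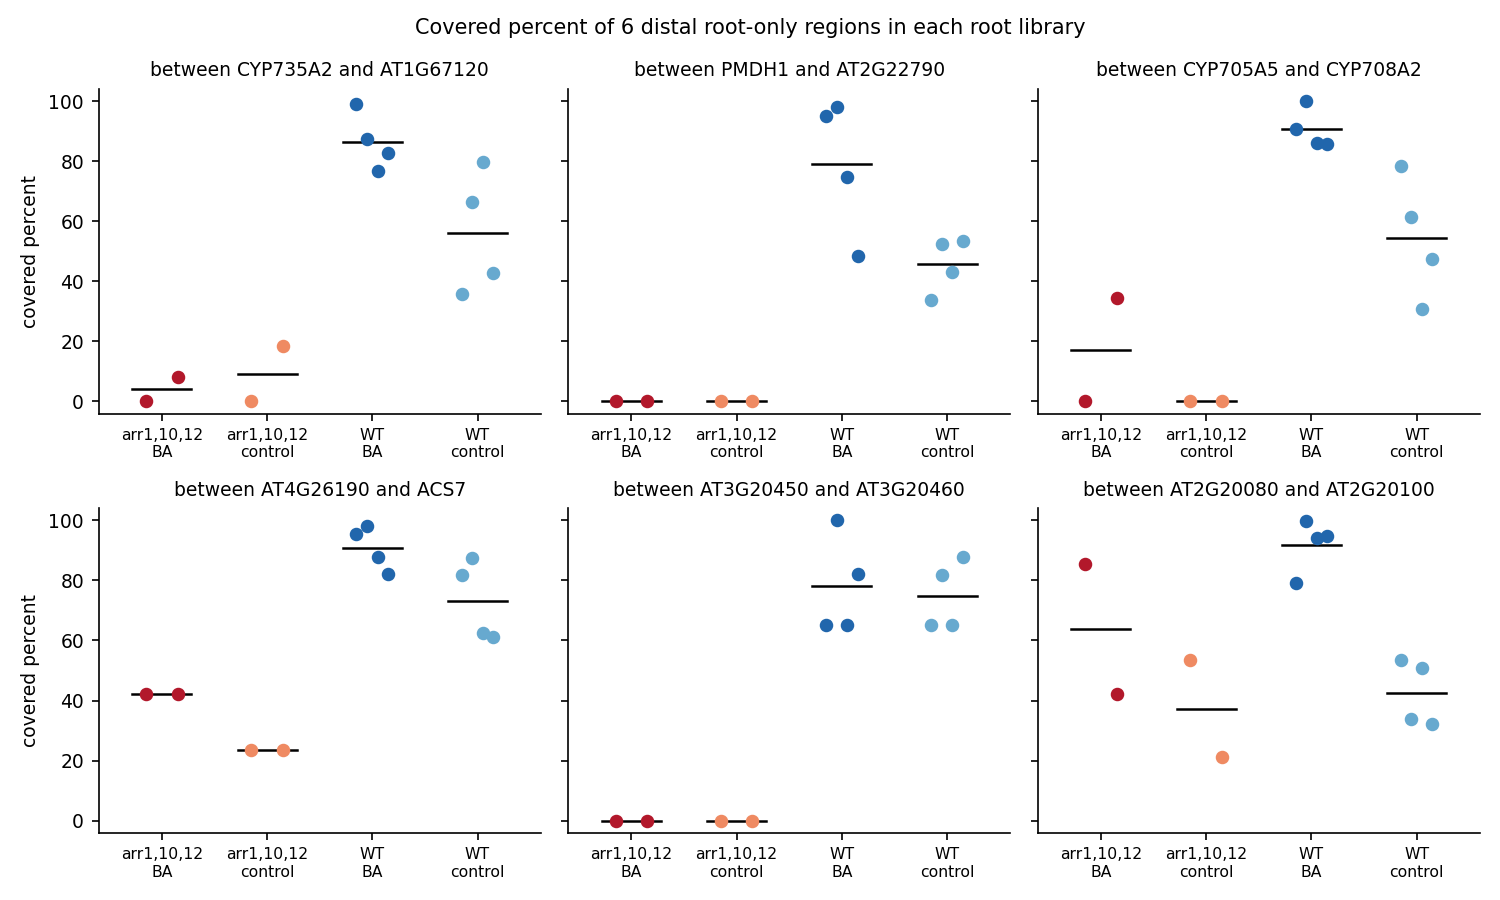
Covered percent of 6 distal root-only regions in each root library, named by the protein-coding genes on both sides; points are libraries, lines are group means, and the groups are arr1,10,12 BA, arr1,10,12 control, WT BA and WT control. The regions at PMDH1 and AT3G20460 are at 0% in all 4 arr1,10,12 libraries, and that at AT2G20080 is 79.1% to 99.7% covered in WT BA and 32.1% to 53.5% in WT control.

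Of the 33 regions next to a listed gene, 23 had a lower mean in arr1,10,12 and 10 a higher one, with a median of -5.03 points, and 1 was called, that of CYP735A2. All 11 regions beside nutrient transport genes had a peak in 4 of 4 arr1,10,12 libraries, with differences of -16.1 to 9.49 points and a median of -0.747 points. The region between AMT1;5 and AMT1;3 was 95.0% and 96.9% covered in arr1,10,12 BA and 96.0% and 100% in arr1,10,12 control, against 86.0% to 99.6% in WT BA and 86.1% to 98.2% in WT control. That between IRT2 and IRT1 was 59.5% to 82.9% covered in arr1,10,12 and 53.4% to 100% in WT roots. The 5 regions beside the stem cell and ground tissue genes had negative differences, between -11.9 and -28.8 points, and 0 were called (limma adjusted p = 0.240 to 0.7). Those of PLT5 and of NUC, an endodermal zinc finger gene, had -28.8 and -28.1 points. The 5 regions of the endodermis, pericycle and vascular list had -10.3 to 5.48 points, with that of MYB36, the transcription factor gene of the Casparian strip, at 87.7% to 94.7% in arr1,10,12 and 87.8% to 98.4% in WT roots. A region 1753 bp from PIN3, an auxin efflux carrier gene, was 30.3% and 43.7% covered in arr1,10,12 BA and 0% and 23.6% in arr1,10,12 control, against 29.5% to 84.8% in WT BA and 60.3% to 90.6% in WT control (difference -40.9 points, SE 11.6, limma adjusted p = 0.179). The region next to ARR12, one of the 3 mutated regulator genes, had -17.3 points (SE 8.33, limma adjusted p = 0.466).

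Treatment with BA was asked about next. All 8 WT root libraries entered the rule alike, but the rule required a peak both with BA and in control. A region that BA opened from no peak, or closed to none, is thus not among the 431. In WT roots limma called 0 of 30325 regions in either direction (0.0%), and 1652 (5.45%) had an unadjusted p under 0.05. Of the 431 regions, 0 were called and 47 (10.9%) had an unadjusted p under 0.05. That share was 8.96% over near-gene root-only regions and 6.30% over distal regions with a peak in all 8 WT root lists. The mean cover of the 431 was 74.3% ± 6.97 in WT BA and 78.1% ± 4.76 in WT control (SD, n = 4 each). The median difference was -3.99 points over the 431 regions and -5.09 points over all regions tested, and with library medians subtracted the values were 3.29 and 2.19 points. The 4 BA libraries stood above the 4 control libraries in 8 of the 431 regions (1.86%, background 0.333%) and below them in 13 (3.02%, background 2.34%). The length of genome under peaks differed by -1.71 Mb with BA (exact permutation p = 0.143). Between libraries of the same replicate number the differences were -1.76, -2.09, -2.39 and -0.603 Mb in WT roots, all negative, with an exact permutation p within pairs of 0.125, the smallest that 4 pairs can give. In arr1,10,12 the 2 pairs differed by -1.16 and -1.52 Mb. The number of peaks was lower with BA in all of these pairs.

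The 8 regions that stood apart upwards were named after their values were seen. They lay at TET14, AT2G20080, CYP82F1, AT4G10520, AT4G13500, PEN3, MRN1 and CYP708A2. PEN3, MRN1 and CYP708A2 are genes of triterpene synthesis, and TET14 encodes a tetraspanin. How many distal root-only regions lie beside triterpene genes was not counted. The gap between CYP71A16 and MRN1 alone holds 7, and in the widest of these the treatments overlapped. Of the 8 regions, the one with the widest difference was at AT2G20080 (chromosome 2, 8670032 to 8670978), 5479 bp from that gene. Its cover was 79.1%, 99.7%, 94.1% and 94.6% in WT BA and 53.5%, 33.9%, 50.8% and 32.1% in WT control (difference 49.3 points, SE 11.6, limma adjusted p = 0.711). In arr1,10,12 it was 85.5% and 42.2% with BA and 53.5% and 21.1% in control, where the treatments overlapped. The PEN3 region was 84.4% to 96.6% covered in WT BA and 60.9% to 84.2% in WT control, and that of MRN1 (chromosome 5, 17046725 to 17049359) was 78.0% to 97.7% covered in WT BA and 66.0% to 76.8% in WT control (limma adjusted p = 0.796 for each). Downwards, the 13 regions were 3.02% of the 431, near the 3.07% of all regions with a peak in all 8 WT root lists. Those named here were picked from the 13 after their values were seen and do not stand for the rest. The region of LRP1, a gene of lateral root primordia, was 51.1% to 78.4% covered in WT BA and 80.5% to 100% in WT control (difference -21.3 points, SE 8.22, limma adjusted p = 0.796). That of AT3G03670, which also faces the root-founder gene WOX11 at 7028 bp, was 49.8% to 65.3% covered in WT BA and 76.5% to 100% in WT control (difference -26.6 points, SE 6.67, limma adjusted p = 0.796).

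In arr1,10,12 roots the cover of the 431 regions was 65.5% ± 2.23 with BA and 64.3% ± 5.36 in control (SD, n = 2 each), and the median difference was 1.14 points against -1.68 points over all regions tested. By limma 0 regions were called for BA in arr1,10,12 (684, or 2.26%, with an unadjusted p under 0.05, 14 of them distal root-only) and 0 for the difference of the BA effects between arr1,10,12 and WT (549, or 1.81%, and 16). With 2 libraries per treatment, the test leans on the spread of the WT groups. The difference of the BA effects had a median of 5.21 points over the 431 regions and 1.72 points over all regions tested.

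The authors' deposited table of BA-responsive regions in WT roots, which gives no direction, overlapped 24 of the 431 regions (5.57%). It overlapped 2.62% of all regions with a peak in all 8 WT root lists and 5.48% of the distal ones among these. Their shoot table overlapped 0 of the 431, against 2.32% of all regions with a peak in all 8 WT root lists. It also overlapped 0 of the 1284 near-gene root-only regions. The rule drops every region that a shoot peak touches, so these counts of 0 follow in part from the choice. The root table was made from the same libraries, so the overlap is a description. Of the 24, 16 (66.7%) had the higher mean cover in WT BA, against 68.1% of the 529 other tested regions in the table and 32.9% of the 431. In arr1,10,12 the mean was higher with BA in 18 of them (75%), against 47.3% of the other regions in the table and 53.4% of the 431. Mean cover was below that of WT in arr1,10,12 in 22 of the 24 (91.7%), with a median of -13.5 points, against 79.0% and -4.91 points for the other regions in the table and 71.7% and -7.44 points for the 431. Among the 12 calls were 4 of the 24 (16.7%), at CYP735A2, ACS7, AT2G22790 and AT4G28830, against 2.46% of the other regions in the table.

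The ARG1 gap held 3 of these 24. Between AT1G68360 and ARG1, a gene of gravity response, 4 regions stood in a row (chromosome 1, 25625379 to 25630219). Their mean cover was 38.1% to 63.1% in arr1,10,12 and 73.4% to 83.1% in WT roots, and 0 were called. The first of them was 50.5% and 53.6% covered in arr1,10,12 BA and 0% and 48.3% in arr1,10,12 control, against 92.9%, 100%, 82.4% and 87.8% in WT BA and 58.5%, 88.0%, 86.8% and 64.5% in WT control (difference between genotypes -44.5 points, SE 9.40, limma adjusted p = 0.0704). A region 4289 bp from LBD4, a transcription factor gene of the procambium, was 40.1% and 84.1% covered in arr1,10,12 BA and 19.0% and 35.6% in arr1,10,12 control, against 98.6%, 89.8%, 80.9% and 91.9% in WT BA and 45.3%, 81.4%, 91.7% and 63.7% in WT control. Both the treatments and the genotypes overlapped there (difference between genotypes -35.7 points, SE 10.1, limma adjusted p = 0.178). The widest regions in the table without a call were those of AT1G77330 and AT4G37860. That of AT1G77330 was 76.3% to 89.3% covered in WT BA and 92.2% to 98.9% in WT control (difference -13.0 points, SE 3.59, limma adjusted p = 0.796). That of AT4G37860 was 74.8% to 95.6% covered in WT BA and 59.7% to 82.1% in WT control (difference 13.5 points, SE 7.64, limma adjusted p = 0.796). The regions of HXK1, the hexokinase that senses glucose, SDR4 and MRN1 (17044023 to 17046216) also overlapped the table and had BA differences of -5.30, 6.22 and -0.160 points. Without each library in turn these lay between -6.91 and -2.88 points for HXK1, 2.23 and 16.6 points for SDR4, and -0.574 and 0.277 points for MRN1.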

How the data were processed

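Chromatin accessibility (ATAC-seq) was measured in 16 of the 28 samples of the series; the 12 RNA-seq samples were not analysed here. The authors deposited 1 peak list per library and 2 lists of differential regions, made with diffReps at a fold of 1.2 per the file names, all as chromosome, start and end. The build was TAIR10, and the tools named are HOMER 4.9.2, deepTools 2.5.2, SAMtools 1.5 and Bowtie 1.2.0, per the submitters' processing notes, which give no role or order; the peak caller's settings are not given in the sources used here. Peaks are all or none, so a covered percent near a caller's threshold can change by a whole peak.

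Peaks overlapping by 1 bp or more were merged over the 12 WT lists. Gene positions came from a table of TAIR10.1 genes; the offset between peaks and genes was within 100 bp in 61 of 62 bins of 2 Mb. Covered percents of regions with a peak in at least 2 root libraries were fitted with limma 3.58.1 (R 4.3.3, trend, 4 group means, 12 root libraries, Benjamini-Hochberg over all regions). Log2 of covered bp plus 50 was among the alternatives. The fit was also run on simulated data, with shifts in WT BA only, independent noise and no replicate pairs. That setting is unlike the genotype comparison, so nothing is drawn from it for the genotype calls. Library totals were compared by two-sided exact permutation with SciPy 1.17.1, also within replicate pairs. Fisher's exact test of peak presence called 0 regions, but the choice of regions by peak presence, and its smallest p of 0.00202 for 4 against 8 and 0.0286 for 4 against 4 libraries, leave it without weight, so it is not used. The labels' replicate numbers pair the WT libraries: deviations from the group means correlated at 0.172 to 0.316 for the same number and -0.207 to 0.130 for others. The regions, gene lists and tests were chosen with earlier results of these data known. The named regions were the 10 widest, the 5 farthest, those with no arr1,10,12 peak, up to 10 calls per contrast, the 10 widest in a differential list, those next to a listed gene and those at the limit. The samples were grouped by the labels' tissue, genotype and treatment. No sequence or motif was used.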

Additional observations from a re-analysis of the deposited data

Results flagged for a closer look

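Libraries that stood apart from the other 3 of their group by Dixon's 95% criterion were found in 7 of 46 groups of 4 libraries examined; chance gives about 1 in 20. Both replicates numbered 1 of WT roots held more peaks than the others, 35228 in BA 1 against 32144 to 32575 and 36358 in control 1 against 32380 to 32953. Single regions gave the other 5. The region of AT1G71000, called lower in arr1,10,12, was 93.1% covered in WT BA 1 and 64.0% to 66.6% in the other BA libraries. That of XTH31, also called lower there, was 78.5% covered in WT BA 1 and 93.3% to 94.3% in the others. The region of SDR4, one of those in the authors' root differential list, was 63.3% covered in WT BA 2 against 76.6% to 79.0%, and 99.3% in WT control 1 against 56.3% to 60.3%. The region of MRN1 (chromosome 5, 17044023) was 98.1% covered in WT control 3 and 99.7% to 99.9% in the other control libraries, a difference of less than 2 points.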

How the results depend on the processing

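The regions themselves depended on the limits of the rule. A midpoint over 2 kb from a gene left 197 regions, 0.508% of them with no arr1,10,12 peak. A peak in at least 7 root lists gave a median width of 620.5 bp, with 73.6% in all 4 arr1,10,12 libraries and 4.17% in none. Peaks 100 bp or less apart, merged, gave 822.5 bp. An arr1,10,12 peak had to cover at least 50% of a region in a further setting, where 59.2% had it in all 4 and 9.05% in none. Leaving out each WT library gave 437 to 491 regions, 667 to 710 bp, 80.2% to 85.2% in all 4 and 1.34% to 2.78% in none. A limit of 500 bp gave 634 regions, a peak in at most 1 shoot list 518, and a distance to any annotated gene 340. Windows of 200 kb and an overlap of at least 50% with the differential list left the comparisons as given (medians of 50, 55 and 50 genes, and 24 regions).

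For arr1,10,12 against WT, 126 regions and 12 distal root-only ones were called. Log2 of covered bp plus 50 gave 298 and 29, library medians subtracted 55 and 6 (5 lower, 1 higher), the replicate block 200 and 13, regions merged from all 16 lists 194 and 17, and no filter 108 and 6. Leaving out each library gave 26 to 167 regions and 1 to 12 distal root-only ones. For BA in WT roots the 0 calls became 18 with log2, 6 with no filter, 15 with no trend and 1 from all 16 lists, and 0 to 17 without each library; none was distal root-only. For BA in arr1,10,12 they became 32 with log2 (3 distal root-only), 10 with no filter, 9 with no trend, 5 with the contrast's libraries alone, and 0 to 5 (0 to 1 distal root-only) without each library. For the difference of BA effects they became 2 with log2, 12 with no filter, 12 with no trend and 0 to 1 without each library. With the replicate block, 5 of the 12 calls remained and 7 had an adjusted p of 0.0546 to 0.0886; it gave 0 calls for BA in either genotype and for the difference of BA effects. Of the BA differences of named regions in WT roots, those of AT4G28830, MRN1 (17044023) and HXK1 turned to 6.43, 7.13 and 1.99 points with library medians subtracted. Without each library in turn AT4G28830 had -1.64 to 0.118 and MRN1 -0.574 to 0.277 points. The comparison of library totals within replicate pairs was chosen after seeing the data. It could not call either total, since the smallest exact permutation p is 0.125 for 4 pairs and 0.5 for 2 pairs. The cause of these changes was not tested. Where 1 arr1,10,12 library of a treatment was left, it was assumed to vary like the other groups. Peak lists without read numbers limit precision in a way that cannot be given here.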
